A study of Mus musculus with 9 samples.

Results

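The replication-dependent histone genes were the 67 protein-coding genes of GENCODE M21 whose mouse symbols begin Hist1h, Hist2h, Hist3h or Hist4h, out of 21938 protein-coding genes on chromosomes 1 to 19, X and Y. The rule reads the symbol and no measured value, and the family was taken up with earlier results of these data known. PBRM1 and BRG1 were mapped by chromatin immunocleavage sequencing (ChIC-Seq), in which an antibody brings micrococcal nuclease to its target in fixed cells and the DNA fragments released are sequenced. The cells were primary smooth muscle cells dispersed from the oviducts of wild-type mice aged 8 to 12 weeks on day 2 of pregnancy and plated for some hours, with 3 PBRM1 libraries (named Baf180 in the labels) and 3 BRG1 libraries, each stated to start from 50000 cells. No treatment or mutant group entered these comparisons, so the only contrast was between antibodies, and the 3 IgG control libraries were not analysed here.

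Replication-dependent histones package newly made DNA and are produced in bulk during S phase. Most of their genes lack introns, and their messages end in a conserved hairpin bound by SLBP in place of a poly(A) tail. Their transcription is coordinated by NPAT in a nuclear body that forms at the clusters. BRG1 is an ATPase of the SWI/SNF chromatin remodelers, and PBRM1 is a bromodomain subunit that defines the PBAF form of the complex.

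The 67 genes lay in 4 clusters. Hist1 on chromosome 13 held 54 genes in a first stretch of 23 genes over 328 kb and a second stretch of 31 genes over 404 kb. Hist2 on chromosome 3 held 10 genes in 50.3 kb, Hist3 on chromosome 11 held 2, and Hist4 on chromosome 6 held Hist4h4 alone. By product, 6 genes encoded linker histone H1, 18 encoded H2A, 18 H2B, 12 H3 and 13 H4. All but 1 (66 of 67, 98.5%) had at least 1 annotated transcript without an intron, against 20.8% of all protein-coding genes.

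The 3′ hairpin that defines these messages was read from the genome (GRCm38) and is shown because it separates the family from other genes independently of the symbols. The search took 16 bases with a perfect 6-base stem that starts GG and a 4-base loop that starts TT. Such a hairpin lay within 100 bases after the stop codon in 63 of 67 genes (94.0%). It was found in 0.331% of 21752 protein-coding genes with an annotated stop codon, histone genes included. The 4 genes without such a match were Hist1h2an, Hist1h3g, Hist1h4a and Hist2h2be. The 6 versions found are given 5′ to 3′ on the sense strand, with the stem in capitals.
hairpin in 41 genes: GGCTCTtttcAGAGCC
hairpin in 9 genes: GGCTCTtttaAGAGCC
hairpin in 8 genes: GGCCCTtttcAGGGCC
hairpin in 2 genes: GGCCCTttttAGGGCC
hairpin in 2 genes: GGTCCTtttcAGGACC
hairpin in 1 gene: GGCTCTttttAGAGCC

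Promoter sequence also set the histone genes apart from other genes. In the window from 250 bases before to 50 bases after the start, both strands searched, CCAAT occurred in 56 of 67 genes (83.6%, against 39.0% of all protein-coding genes) and TATAAA in 37 (55.2%, against 12.6%). The octamer ATTTGCAT occurred in 15 genes (22.4%, against 1.57%), 7 for H2A and 8 for H2B, and in no H1, H3 or H4 gene. GGGCGG occurred in 28 (41.8%, against 43.0%), the E2F-type words TTTGGCGC or TTTCCCGC in 3, each an H4 gene (4.48%, against 2.00%), and TGAGTCA in 0 of 67 (against 4.59%). Where neighbouring histone genes face apart from close starts, their windows overlap, and the same word can count for both genes. The octamer lay between the starts of 5 of 12 such pairs. A match is a word in the sequence and not a measured factor binding site.

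The following sequences are printed to set a promoter with peaks close to its starts beside promoters without a peak close to theirs. In the last pairs, Hist1h2ao was counted in the BRG1 lists through summits 1772 to 1940 bases downstream of its start. The region between the starts of the Hist2h2ac and Hist2h2be pair stood beside peaks in all 6 lists, the Hist1h2ba and Hist1h2aa pair is the germ-cell pair with no peak, and the last pairs are the copies of the duplicated block of Hist1. Each is read 5′ to 3′ from GRCm38, with the octamer, TATAAA and CCAAT, on either strand, in capitals.
Hist2h2ac/Hist2h2be (chr3:96220881-96221118, plus strand): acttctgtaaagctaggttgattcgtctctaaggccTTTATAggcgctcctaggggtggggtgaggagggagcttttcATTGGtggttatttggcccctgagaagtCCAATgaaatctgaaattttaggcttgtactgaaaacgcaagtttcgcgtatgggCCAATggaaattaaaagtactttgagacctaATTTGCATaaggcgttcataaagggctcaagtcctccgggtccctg
Hist1h2ba (chr13:23934157-23934306, minus strand): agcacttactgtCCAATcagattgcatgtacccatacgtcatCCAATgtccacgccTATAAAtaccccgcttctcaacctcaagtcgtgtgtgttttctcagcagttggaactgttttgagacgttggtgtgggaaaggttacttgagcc
Hist1h2aa (chr13:23934312-23934461, plus strand): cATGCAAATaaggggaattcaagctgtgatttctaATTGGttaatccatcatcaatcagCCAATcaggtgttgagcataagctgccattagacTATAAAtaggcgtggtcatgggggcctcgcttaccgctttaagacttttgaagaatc
Hist1h2bq/Hist1h2ao (chr13:21810198-21810464, plus strand): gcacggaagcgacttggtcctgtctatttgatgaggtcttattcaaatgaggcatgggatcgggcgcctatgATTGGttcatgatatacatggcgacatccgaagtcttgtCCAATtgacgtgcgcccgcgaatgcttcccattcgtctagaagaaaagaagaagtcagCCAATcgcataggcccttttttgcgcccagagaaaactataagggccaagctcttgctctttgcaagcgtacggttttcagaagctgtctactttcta
Hist1h2ap/Hist1h2br (chr13:21833508-21833742, plus strand): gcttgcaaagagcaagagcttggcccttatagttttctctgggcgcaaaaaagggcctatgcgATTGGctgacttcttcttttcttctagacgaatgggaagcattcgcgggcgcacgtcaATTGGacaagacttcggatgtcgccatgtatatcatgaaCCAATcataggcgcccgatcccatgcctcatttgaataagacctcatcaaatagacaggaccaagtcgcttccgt
The germ-cell pair carried the octamer, TATAAA and CCAAT, as did the pair beside the peaks, so these 3 words did not separate the germ-cell pair from it. Between the starts of Hist1h2bq/Hist1h2ao and of Hist1h2ap/Hist1h2br, CCAAT occurred but TATAAA and the octamer did not. Both words were also absent between the starts of Hist1h2ag/Hist1h2bj, where each gene had a peak in 5 lists.

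Most histone genes carried peaks. Peak height is given as the scaled pileup, the number of fragments stacked at the highest peak near a start per 1000000 fragments that the caller reported for that list. A gene was counted in a list when a peak summit lay within 2 kb of its start, taken as the 5′ end of the gene record. Of the 67 genes, 31 (46.3%) had a peak in all 6 replicate lists, against 37.5% of all protein-coding genes. At the other end, 6 (8.96%) had none in any replicate list, against 39.0% of all genes. Between these, 2 genes had a peak in 1 list, 6 in 2, 6 in 3, 7 in 4 and 9 in 5. The higher share with a peak in all 6 lists depended on the rule. It was 19 genes (28.4%, background 29.8%) when the summit had to lie within 500 bp, 16 (23.9%, background 24.7%) with a -log10 q of at least 5, and 18 (26.9%, background 30.3%) when each peak was given to its nearest start only. The share with none stayed below that of all genes under these rules, at 13 genes (19.4%, background 46.4%), 14 (20.9%, background 48.6%) and 11 (16.4%, background 41.9%). The lists made by the authors from pooled reads held a peak at 59 genes for PBRM1 (background 61.1%) and at 60 for BRG1 (background 63.1%). Neighbouring histone starts often fell within 2 kb of the same summit, so the genes were not independent. The number of distinct peaks behind the counts was 36, 38 and 35 in the PBRM1 lists and 45, 44 and 46 in the BRG1 lists.

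**Figure D1:**
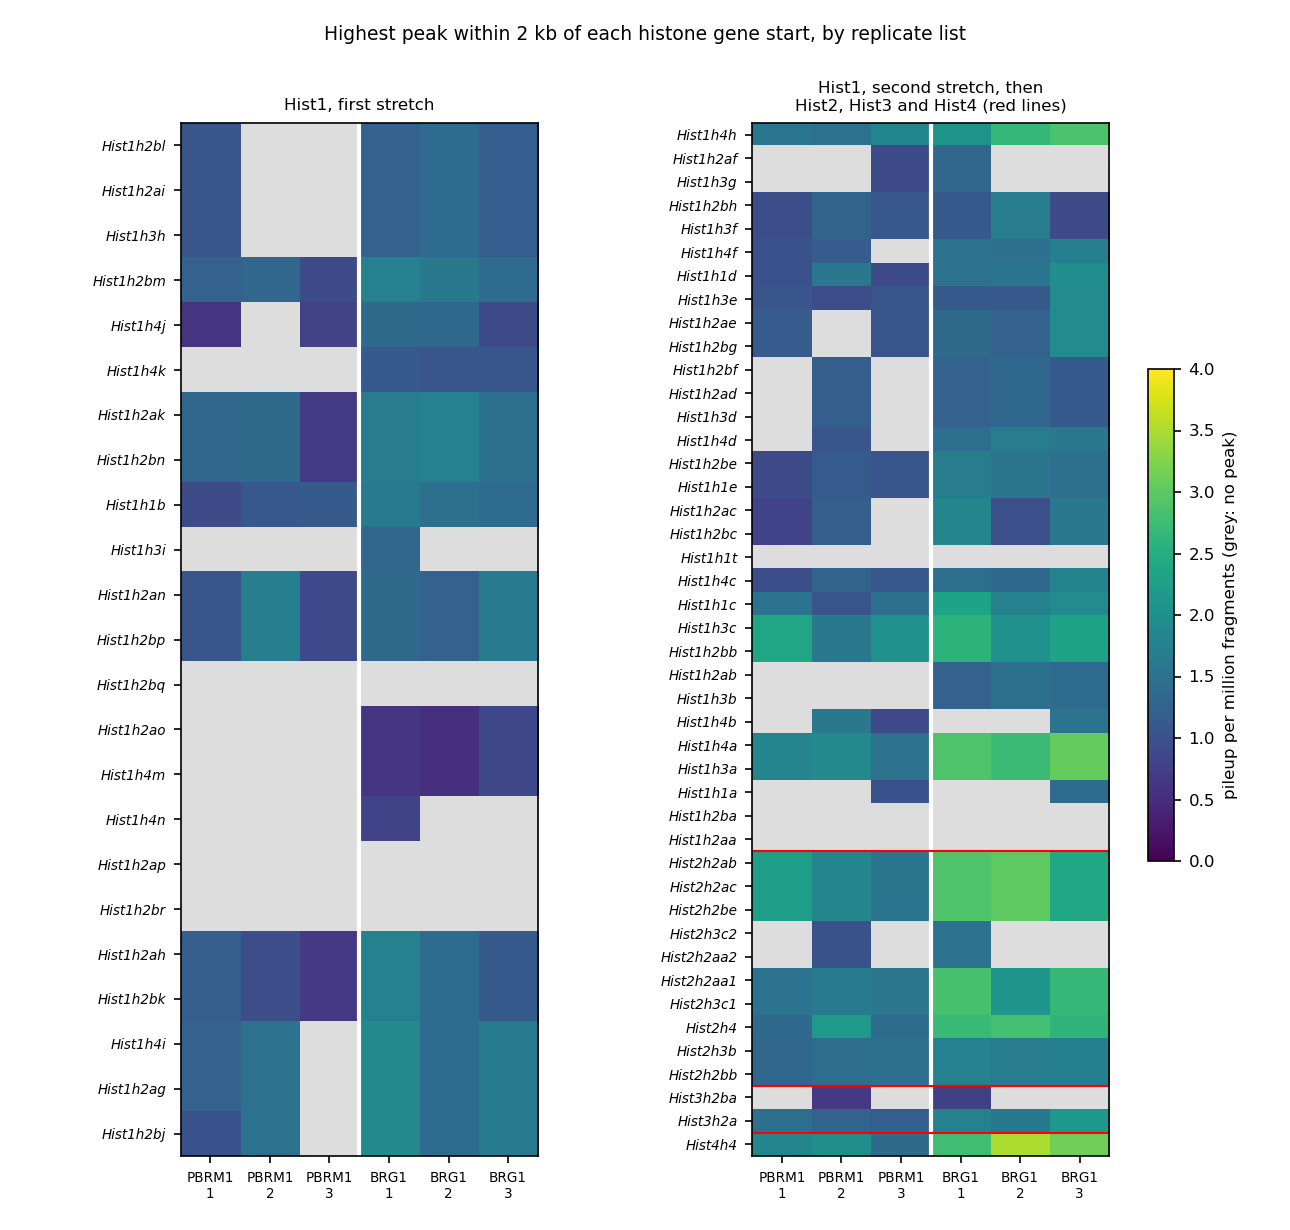
Scaled pileup (per 1000000 fragments) of the highest peak within 2 kb of each of the 67 histone gene starts (rows, in chromosomal order) in each replicate list (columns), with grey where no peak was listed. Adjacent rows with the same colours share a peak, rows that are grey throughout lie in both stretches of Hist1, and the brightest rows include Hist4h4, several Hist2 genes, Hist1h4a and Hist1h3a, Hist1h3c and Hist1h2bb, and Hist1h4h.

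BRG1 peaks were listed at more histone genes than PBRM1 peaks. The PBRM1 lists held 43, 45 and 38 of the 67 genes (42.0 ± 3.61, SD, n = 3) and the BRG1 lists 59, 52 and 54 (55.0 ± 3.61, n = 3), a difference of 13.0 genes with no overlap between the antibodies. Over all protein-coding genes the shares were 49.2%, 46.6% and 47.2% for PBRM1 and 53.5%, 50.5% and 52.5% for BRG1, also without overlap. The mean share of histone genes was 62.7% for PBRM1 and 82.1% for BRG1, beside 47.7% and 52.2% of all genes. With the nearest start only, the mean shares were 48.3% and 61.2% of histone genes, beside 42.4% and 46.7% of all genes. No p-value was computed for this count over the gene family.

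**Figure D2:**
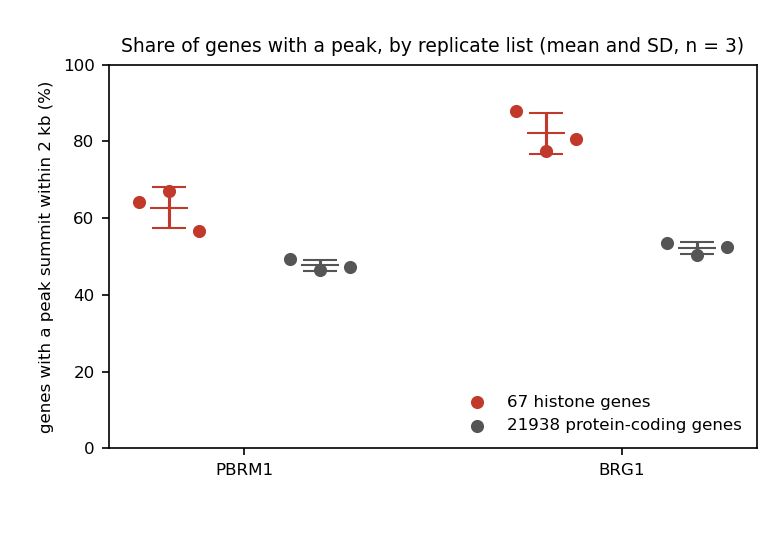
Percent of genes with a peak summit within 2 kb of the start in each of 3 PBRM1 and 3 BRG1 replicate lists, for the 67 histone genes (red) and for 21938 protein-coding genes (grey), with the mean and SD. Red points for BRG1 lie between 77.6% and 88.1%, above the red points for PBRM1 at 56.7% to 67.2%, and the grey points lie between 46.6% and 53.5%.

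The difference in support ran in a single direction at nearly all genes where the antibodies differed. A peak was present in all 3 BRG1 lists at 52 histone genes (background 45.5%) and in all 3 PBRM1 lists at 31 (background 39.6%). More BRG1 lists than PBRM1 lists held a peak at 23 genes (34.3%, background 14.6%), every one of them in Hist1. The reverse held at Hist1h4b alone (1.49%, background 5.37%), which had a peak in 2 PBRM1 lists and 1 BRG1 list. No gene had all 3 PBRM1 lists and no BRG1 list (background 0.114%).

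A peak in all 3 BRG1 lists and in no PBRM1 list was found at 5 histone genes (7.46%, background 0.798%), on 3 sets of values. Hist1h4k, an H4 gene, had scaled pileups of 1.13, 1.05 and 1.06 in BRG1 replicates 1, 2 and 3. Hist1h2ab and Hist1h3b, which encode H2A and H3, shared values of 1.26, 1.47 and 1.40 that come from different positions. In BRG1 replicate 1 the summit lay at -21 bases from the start of Hist1h3b and 1120 downstream of that of Hist1h2ab. In replicates 2 and 3 it lay 93 and 40 bases downstream of the start of Hist1h2ab. Hist1h2ao and Hist1h4m, an H2A and an H4 gene of the duplicated block, shared the lowest peak of 0.629, 0.560 and 0.865. The pooled PBRM1 list held a peak at Hist1h4k (0.598) and at Hist1h2ab and Hist1h3b (0.711), and none at Hist1h2ao and Hist1h4m. Summits of the latter peak lay 491 to 659 bases downstream of the start of Hist1h4m. From the start of Hist1h2ao they lay 1772 to 1940 bases downstream, close to the 2 kb limit.

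The 6 histone genes with no peak in any replicate list fell into 2 kinds. Hist1h1t, Hist1h2ba and Hist1h2aa encode the H1, H2B and H2A forms known from male germ cells and lie in the second stretch of Hist1. The remaining genes, Hist1h2bq, Hist1h2ap and Hist1h2br, lie in a duplicated block of the first stretch. The pooled lists also lacked a peak at 5 of these 6 genes, and at Hist1h1t the pooled PBRM1 list held a summit 1976 bases downstream of the start, close to the 2 kb limit, with a scaled pileup of 0.517.

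Repeated sequence differed between these kinds. Histone genes resemble each other, and a read that fits several places cannot be assigned to any of them. The share of 31-base words within 500 bases of the start that also occur elsewhere in the genome was 0% at Hist1h1t, 17.9% at Hist1h2ba and 5.25% at Hist1h2aa. At Hist1h2bq, Hist1h2ap and Hist1h2br it was 100%. Of the 67 genes, 49 (73.1%) had 20% or more of their words elsewhere, against 12.6% of all protein-coding genes. Of 8 histone genes with 90% or more, 1 (Hist2h3c1, through a peak it shares with Hist2h2aa1) had a peak in all 6 lists and 3 had none. Over all protein-coding genes at 90% or more, 98.3% of 823 had none. Of the 18 histone genes under 20%, 12 had a peak in all 6 lists and 3, the germ-cell genes, had none. These 12 include Hist1h2be, Hist1h1d and Hist1h3f, whose record starts lie 35168, 1828 and 433 bases from the coding sequence. The words there were read around the record start. Of the 41 genes from 20% to under 90%, 18 had a peak in all 6 and 0 had none. At under 20%, the lists held 13, 14 and 13 genes for PBRM1 and 14, 14 and 15 for BRG1. Of the 23 genes with more BRG1 than PBRM1 lists, 21 were at 20% or more, and whether repeated sequence bears on the difference between antibodies was not tested.

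**Figure D3:**
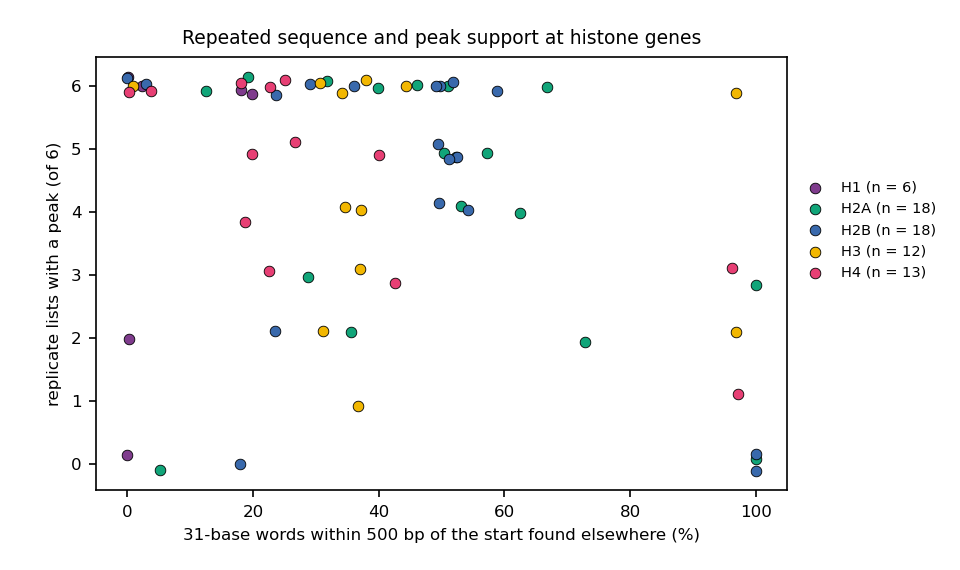
Percent of 31-base words within 500 bases of each histone gene start that occur elsewhere in the genome (x) and the number of replicate lists with a peak (y, spread slightly so that points can be told apart), coloured by histone type. Genes at 0 lists lie either under 20% or at 100%.

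Peak summits lay close to histone gene starts and mostly downstream of them. Taking each distinct peak with its nearest histone start, the median distance was 156, 152 and 161 bases in the PBRM1 lists and 112, 129 and 94.5 in the BRG1 lists. Over summits at all protein-coding genes it was 171, 177 and 171 bases for PBRM1 and 156, 155 and 147 for BRG1. Downstream summits outnumbered upstream summits in every list, at 29 to 7, 30 to 8 and 20 to 15 for PBRM1 and 32 to 13, 34 to 10 and 30 to 16 for BRG1. The same count is not given for all protein-coding genes, so this is not shown to be particular to histone genes. Between 74.3% and 92.1% of summits were within 500 bases, beside 76.0% to 78.6% of summits at all protein-coding genes.

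**Figure D4:**
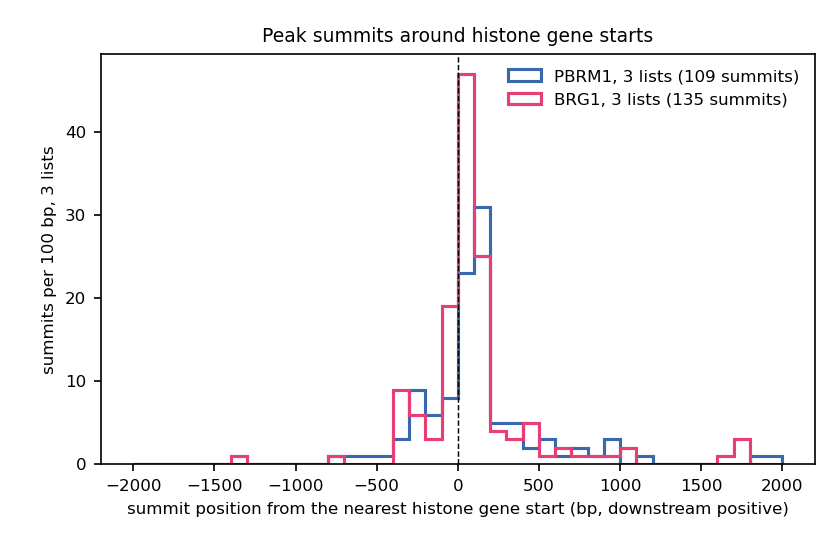
Number of peak summits per 100 bases by position from the nearest histone gene start (downstream positive), summed over 3 PBRM1 lists (109 summits) and 3 BRG1 lists (135 summits). Both outlines are highest within 200 bases downstream of the start.

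The head-to-head H2A and H2B genes made this position visible on both sides of a promoter. There were 12 such pairs, transcribed away from each other from starts 176 to 306 bases apart (median 259.5), and CCAAT occurred between the starts of all 12, TATAAA in 7 and the octamer in 5. Where a summit lay within 500 bases of the pair, the highest one fell between the starts in 0 of 8, 0 of 7 and 2 of 4 pairs in the PBRM1 lists and in 0 of 9, 0 of 8 and 1 of 9 in the BRG1 lists. In 201 other protein-coding pairs with starts 150 to 350 bases apart, it fell between the starts in 44.7% to 56.6% of pairs in the PBRM1 lists and in 52.5% to 57.6% in the BRG1 lists. Summed over the 6 lists, 3 of 45 highest summits lay between the histone starts (6.67%), 32 lay inside the H2A gene and 10 inside the H2B gene, beside 52.7% of 1074 between the starts of other pairs. The same pairs recur in these sums. In the pooled lists, 0 of 9 PBRM1 and 0 of 8 BRG1 summits lay between histone starts. The 3 exceptions were at Hist1h2an/Hist1h2bp in PBRM1 replicate 3 and BRG1 replicate 3 and at Hist1h2ah/Hist1h2bk in PBRM1 replicate 3.

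At Hist2h2ac/Hist2h2be, whose intervening sequence is given above, the highest summit within 500 bases lay 317 bases inside Hist2h2be in PBRM1 replicate 1 and 77 and 73 bases inside Hist2h2ac in PBRM1 replicates 2 and 3. For BRG1 it lay 65 and 46 bases inside Hist2h2ac in replicates 1 and 2 and 213 bases inside Hist2h2be in replicate 3. The side therefore changed between replicates while the space between the starts held no highest summit in any of the 6 lists.

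Across the family, BRG1 peaks were higher than PBRM1 peaks in scaled pileup by about as much as at other genes. The limma fit on log2 scaled pileup covered the 8217 protein-coding genes with a peak in all 6 lists, 31 of them histone genes on 20 distinct sets of values. BRG1 was higher at 22 of the 31 (71.0%, 15 distinct sets), beside a background of 76.6%, and PBRM1 was higher at 0 (background 0.0974%), with 0 also at an unadjusted p under 0.05. The log2 ratio of PBRM1 over BRG1 was below 0 at all 31, between -0.87 and -0.14. Its median was -0.58 over the histone genes and -0.60 over all genes fitted. All 3 BRG1 values lay above all 3 PBRM1 values at 22 of the 31 genes (background 74.2%). The scale therefore carried a shift between antibodies common to the genome. After each library was centred on its median over all genes fitted, the median was 0.03 for the histone genes and 0.01 for all genes, and limma called 0 of the 31 (background 0.645% in either direction). In this centred fit, at an unadjusted p under 0.05, PBRM1 was relatively higher at 4 of the 31 (12.9%, background 7.63%), Hist1h3c and Hist1h2bb (0.39, SE 0.16, adjusted p = 0.278) and Hist1h2bh and Hist1h3f (0.47, SE 0.21, adjusted p = 0.297). With fold enrichment over local background in place of pileup, the median log2 ratio was -0.38 over the histone genes and -0.24 over all genes fitted. On that scale limma called 3 of the 31 (9.68%, background 17.4%), each with BRG1 higher, and 20 (64.5%, background 34.6%) had an unadjusted p under 0.05. Different antibodies and depths cannot be told apart from different occupancy in this contrast.

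**Figure D5:**
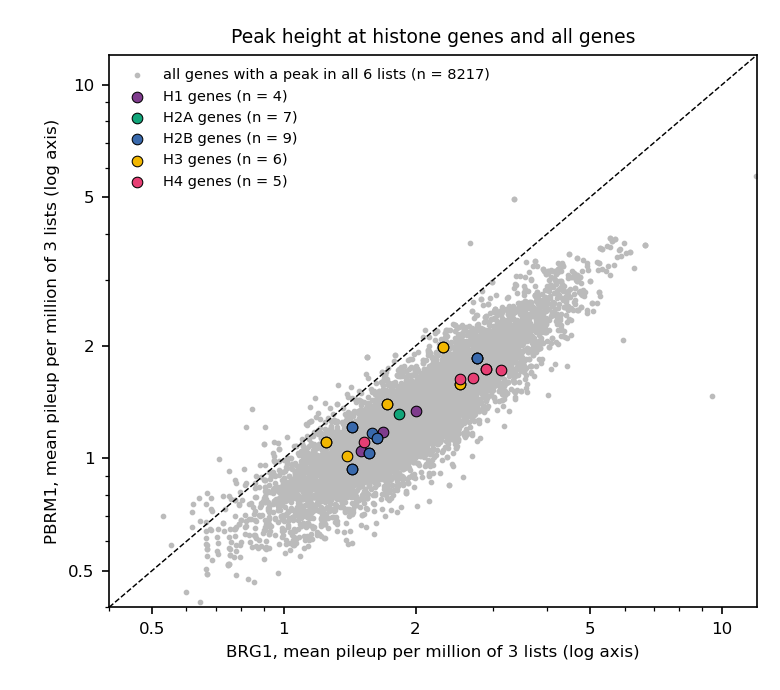
Mean scaled pileup (per 1000000 fragments) over 3 BRG1 lists (x) and 3 PBRM1 lists (y), both on log axes, for 8217 genes with a peak in all 6 lists (grey; 2 lie outside the axes) and for 31 histone genes coloured by type, with the line of equality dashed. Histone genes on a shared peak overlie each other, all lie below the dashed line, and they lie within the grey cloud.

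Support and height by cluster were as follows. In Hist2, 8 of 10 genes had a peak in all 6 lists, and in Hist1 the count was 8 of 23 in the first stretch and 13 of 31 in the second. Hist4h4 and 1 of the 2 Hist3 genes also had a peak in all 6. By product, the counts were 4 of 6 for H1, 7 of 18 for H2A, 9 of 18 for H2B, 6 of 12 for H3 and 5 of 13 for H4. Among genes with a peak in all 6 lists, the median of the mean scaled pileup was 1.13 for PBRM1 and 1.57 for BRG1 in Hist1 and 1.61 and 2.62 in Hist2.

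Hist4h4, the isolated H4 gene (ENSMUSG00000096010.2, chr6:136801553-136804415, minus strand), had the highest mean BRG1 value of the family. Here and for the genes that follow, the scaled pileups are given in the order of replicates 1, 2 and 3, and the log2 ratio of PBRM1 over BRG1, its SE and the adjusted p are those of the limma fit. Its scaled pileup was 1.82, 1.99 and 1.38 for PBRM1 and 2.77, 3.50 and 3.13 for BRG1. The means were 1.73 ± 0.316 and 3.13 ± 0.366 (SD, n = 3), and all BRG1 values lay above all PBRM1 values (log2 ratio -0.87, SE 0.18, adjusted p = 9.26e-05). In Hist3, Hist3h2a, an H2A gene, had 1.47, 1.27 and 1.21 for PBRM1 and 1.76, 1.61 and 2.13 for BRG1. The groups did not overlap at Hist3h2a (log2 ratio -0.48, SE 0.20, adjusted p = 0.0266). Its neighbour Hist3h2ba, an H2B gene, had a peak in PBRM1 replicate 2 (0.662) and BRG1 replicate 1 (0.755) and in no other replicate list.

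The 10 Hist2 genes stood on 5 sets of values. At Hist2h4, an H4 gene, scaled pileup was 1.36, 2.15 and 1.42 for PBRM1 and 2.70, 2.80 and 2.59 for BRG1 (log2 ratio -0.75, SE 0.19, adjusted p = 0.000649). Hist2h2ab, Hist2h2ac and Hist2h2be, which encode H2A, H2A and H2B, shared values of 2.22, 1.82 and 1.54 for PBRM1 and 2.89, 3.01 and 2.39 for BRG1 (log2 ratio -0.58, SE 0.18, adjusted p = 0.00434). BRG1 exceeded PBRM1 without overlap at both. The values shared by the latter genes come from different positions. From the start of Hist2h2ab, the summits lay at 160, 938 and 101 bases for PBRM1 and at 950, 92 and 95 for BRG1. Hist2h2aa1 and Hist2h3c1, an H2A and an H3 gene, shared 1.52, 1.66 and 1.58 for PBRM1 and 2.83, 2.10 and 2.66 for BRG1 (log2 ratio -0.66, SE 0.18, adjusted p = 0.00171). Hist2h3b and Hist2h2bb, for H3 and H2B, shared 1.31, 1.43 and 1.46 for PBRM1 and 1.76, 1.68 and 1.73 for BRG1, again without overlap but not past the threshold (log2 ratio -0.30, SE 0.19, adjusted p = 0.144). From the start of Hist2h3b, the summits lay at 1124, 912 and 933 bases for PBRM1 and at 75, 1140 and 903 for BRG1. Near copies of Hist2h2aa1 and Hist2h3c1, named Hist2h2aa2 and Hist2h3c2, shared a peak in PBRM1 replicate 2 (0.993) and BRG1 replicate 1 (1.51) and had none in the other replicate lists. Of the words around the starts, 96.8% occurred elsewhere at each of Hist2h3c1 and Hist2h3c2.

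In Hist1, the highest peaks were each near an H3 or H4 gene, and one of them lay nearer an H2B gene. Hist1h4a and Hist1h3a, an H4 and an H3 gene, shared 1.82, 1.88 and 1.50 for PBRM1 and 2.89, 2.73 and 3.06 for BRG1 (log2 ratio -0.75, SE 0.18, adjusted p = 0.000404). Summits of this peak lay at -301 to -123 bases from the start of Hist1h4a and at 855 to 1033 from that of Hist1h3a, downstream counted as positive. Hist1h4h had 1.57, 1.49 and 1.83 for PBRM1 and 2.08, 2.66 and 2.86 for BRG1 (log2 ratio -0.63, SE 0.18, adjusted p = 0.00282), and every BRG1 value was above every PBRM1 value at these genes. From the start of Hist1h4h, the summits lay at 682, 128 and 161 bases for PBRM1 and at 136, 126 and 689 for BRG1. The groups overlapped at a further high peak, whose mean over the PBRM1 lists was the highest of the genes with a peak in all 6. Hist1h3c and Hist1h2bb, an H3 and an H2B gene, shared 2.37, 1.60 and 2.00 for PBRM1 and 2.58, 2.03 and 2.33 for BRG1 (log2 ratio -0.23, SE 0.18, adjusted p = 0.239). Its summits lay at -836 to -781 bases from the start of Hist1h3c and at -351 to -296 from that of Hist1h2bb. The lowest H4 gene with a peak in all 6 lists was Hist1h4c at 0.960, 1.27 and 1.08 for PBRM1 and 1.45, 1.33 and 1.80 for BRG1 (log2 ratio -0.46, SE 0.21, adjusted p = 0.0390). The lower H3 genes did not pass the threshold. Values at Hist1h3e were 1.06, 0.938 and 1.04 for PBRM1 and 1.13, 1.12 and 1.93 for BRG1 (log2 ratio -0.41, SE 0.22, adjusted p = 0.0757). Values at Hist1h3f, shared with the H2B gene Hist1h2bh, were 0.960, 1.27 and 1.08 for PBRM1 and 1.13, 1.68 and 0.931 for BRG1 (log2 ratio -0.14, SE 0.22, adjusted p = 0.535). The summits lay at 106, -659 and 135 bases from the start of Hist1h3f for PBRM1 and at -734, -730 and 473 for BRG1. These values therefore come from different positions. The record of Hist1h3f starts 433 bases before its coding sequence.

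The linker histone genes of the somatic kind had intermediate peaks. Hist1h1c was highest, at 1.52, 1.05 and 1.46 for PBRM1 and 2.33, 1.75 and 1.93 for BRG1 (log2 ratio -0.59, SE 0.20, adjusted p = 0.00767). From the start of Hist1h1c, the summits lay at 46, 146 and 1128 bases for PBRM1 and at 153, 826 and 99 for BRG1. Hist1h1d had 1.01, 1.60 and 0.917 for PBRM1 and 1.51, 1.54 and 2.00 for BRG1 (log2 ratio -0.55, SE 0.21, adjusted p = 0.0176). Its gene record starts 1828 bases before the coding sequence. In replicate 1 of each antibody, the value came from the peak at the neighbouring H4 gene Hist1h4f, upstream of that record start. In replicates 2 and 3 of each antibody, the summits lay 1700 to 1935 bases downstream of it. The values of Hist1h1d therefore come from different peaks. Hist1h1e had 0.909, 1.16 and 1.04 for PBRM1 and 1.70, 1.54 and 1.46 for BRG1 (log2 ratio -0.60, SE 0.21, adjusted p = 0.00865). The PBRM1 summits lay 1003 to 1157 bases downstream of the start of Hist1h1e and the BRG1 summits at -38 to 113. The ratio therefore compares different positions. Hist1h2be shares these values because its record begins 35168 bases from its own coding sequence and near Hist1h1e. Hist1h1b had 0.909, 1.10 and 1.13 for PBRM1 and 1.64, 1.47 and 1.40 for BRG1 (log2 ratio -0.52, SE 0.21, adjusted p = 0.0203). The summit of PBRM1 replicate 1 lay 919 bases downstream of the start of Hist1h1b, and the other summits at -68 to 281. BRG1 exceeded PBRM1 without overlap at Hist1h1c, Hist1h1e and Hist1h1b, and the groups overlapped at Hist1h1d. Hist1h1a had a peak in replicate 3 of each antibody only.

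H2A and H2B genes of Hist1 with a peak in all 6 lists were mostly head-to-head partners on a common peak. Hist1h2ak and Hist1h2bn shared 1.31, 1.38 and 0.709 for PBRM1 and 1.70, 1.75 and 1.46 for BRG1 (log2 ratio -0.59, SE 0.22, adjusted p = 0.0135). The summit of PBRM1 replicate 3 lay at -846 bases from the start of Hist1h2ak, and the other summits at 51 to 139. Hist1h2ah and Hist1h2bk shared 1.21, 0.938 and 0.667 for PBRM1 and 1.76, 1.40 and 1.13 for BRG1, with overlap between the groups (log2 ratio -0.63, SE 0.22, adjusted p = 0.0109). Hist1h2an and Hist1h2bp shared 1.06, 1.71 and 0.875 for PBRM1 and 1.38, 1.26 and 1.66 for BRG1, also with overlap (log2 ratio -0.29, SE 0.22, adjusted p = 0.204). At these pairs PBRM1 replicate 3 was the lowest of the 6 values.

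Within each library, histone peaks were about as high as other promoter peaks for PBRM1 and lower for BRG1. The median scaled pileup at histone genes with a peak was 1.21, 1.38 and 1.08 in the PBRM1 lists, beside 1.26, 1.27 and 1.04 at all genes with a peak. In the BRG1 lists it was 1.51, 1.47 and 1.63, beside 1.70, 1.68 and 1.80. The log2 ratio of these medians averaged 0.04 ± 0.09 (SD, n = 3) for PBRM1 and -0.17 ± 0.03 for BRG1. The BRG1 lists include more of the histone genes, so the medians cover different genes.

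Genes that control and process histone messages also carried peaks. Of 25 genes on a list of histone locus body, transcription and 3′ processing factors, 20 had a peak in all 6 lists (background 37.5%). Of the 25, 2 (Gon4l and Zfp473) had none at the gene record start (background 39.0%), although at Zfp473 an annotated transcript start had a peak in all 6. Npat, the coordinator of histone transcription, had scaled pileup of 2.83, 3.09 and 2.50 in the PBRM1 lists and 4.03, 4.13 and 4.46 in the BRG1 lists, the BRG1 values lying above every histone gene value. Casp8ap2, a component of the histone locus body, had 1.67, 1.21 and 1.75 in the PBRM1 lists and 3.52, 2.94 and 3.06 in the BRG1 lists. Slbp, which encodes the hairpin binding protein, had 2.32, 2.43 and 1.83 in the PBRM1 lists and 3.59, 3.22 and 3.39 in the BRG1 lists. Lsm11, part of the U7 particle that guides cleavage of the message, had 0.960, 0.717 and 0.792 in the PBRM1 lists and 1.70, 1.47 and 2.26 in the BRG1 lists. At each of these 4 genes all BRG1 values lay above all PBRM1 values, as at 74.2% of all genes with a peak in all 6 lists. Coil, on the same list of 25, went the other way. It had 4.40, 3.70 and 3.25 in the PBRM1 lists and 2.52, 2.73 and 2.73 in the BRG1 lists.

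Of 14 matched genes for replacement histones, which are made outside S phase, 5 had a peak in all 6 lists (background 37.5%). Of the 14, 3 had none at the gene record start (background 39.0%). H3f3a, for H3.3, had 1.11, 1.32 and 1.00 in the PBRM1 lists and 2.14, 1.89 and 1.40 in the BRG1 lists. H2afz, for H2A.Z, had 2.02, 1.54 and 1.63 in the PBRM1 lists and 2.64, 2.66 and 3.92 in the BRG1 lists, and H2afx, for H2A.X, had 1.77, 1.38 and 1.13 in the PBRM1 lists and 2.64, 2.87 and 3.19 in the BRG1 lists. Cenpa, the centromeric H3, had 1.16, 1.16 and 0.917 in the PBRM1 lists and 1.76, 1.26 and 1.73 in the BRG1 lists. H1f0 had 1.31 and 1.04 in PBRM1 replicates 1 and 3, no peak in PBRM1 replicate 2, and 2.14, 1.96 and 2.13 in the BRG1 lists. H3f3b, the other H3.3 gene, was listed without a peak at its gene record start, and an annotated transcript start up to 3489 bases away had a peak in all 6 lists.

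The libraries held 18126049 to 23992352 fragments for PBRM1 and 14284532 to 15897724 for BRG1, with 31970 to 38147 and 35220 to 39467 peaks. Of 7 smooth muscle marker genes, 4 (Acta2, Tagln, Smtn and Mylk) had a peak in all 6 lists (background 37.5%), Cnn1 had none and Myh11 had a peak in 1. Of 7 oviduct epithelium markers, 0 had a peak in all 6 and 4 (Pax8, Ovgp1, Foxj1 and Epcam) had none (background 39.0%). A peak is not a measure of expression, and no RNA was analysed here.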

How the data were processed

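Peak lists were deposited for 3 PBRM1 libraries, 3 BRG1 libraries and the pooled reads of each antibody. Per the labels, the authors used cutadapt, Bowtie2, MACS2 and GRCm38.p5. The file headers name MACS 2.2.7.1, a q-value limit of 0.05 and an effective genome size of 2300000000, with no control file. In the deposited lists, pileup is a signal of stacked fragments, fold enrichment is a ratio to local background, and p and q are given as -log10 values. The study's methods state a mapping-quality filter and duplicate removal for uterine cells, and for these libraries such steps are not given in the sources used here. How reads from repeated sequence were placed is likewise not given for these libraries.

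Here, each gene took the highest peak with a summit within 2 kb of the 5′ end of its GENCODE M21 record, and pileup was divided by the fragments in the list header and multiplied by 1000000 (scaled pileup). The highest peak of a gene could lie at different positions in different lists. Counts per list were summarised as mean ± SD. Genes with a peak in all 6 lists were fitted with limma 3.58.1 (R 4.3.3, trend, no pseudocount, Benjamini-Hochberg over all genes fitted, threshold 0.05), tested on simulated data. The labels do not say that replicates were separate cultures or animals, so p-values measure only the spread between these samples. Words, motifs and hairpins were read from GRCm38 with Python 3.11.15. No comparison columns were in the files.

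The genes named with values were the members of clusters of at most 8 genes, the 2 highest and 2 lowest per histone type in Hist1 with a peak in all 6 lists, those with no peak or with peaks of 1 antibody, the 10 with the smallest adjusted p and the germ-cell forms. A few further genes were named after their values were seen (the pairs with summits between the starts, Hist1h4b, Hist1h1a, Hist2h3b, Hist2h2bb, the near copies in Hist2 and genes without a hairpin). Coil was also named after its values were seen. The members and lists were chosen with earlier results of these data known. Alternatives were other windows, any transcript start, a -log10 q of at least 5, equal numbers of peaks, the nearest start only, any overlap, centring, fold enrichment, fewer lists, a replicate block and leaving out each replicate.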

Additional observations from a re-analysis of the deposited data

How the results depend on the processing

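The count of histone genes with a peak in all 6 lists, 31 as reported, was 19 within 500 bp, 16 with a -log10 q of at least 5, 18 with each peak given to its nearest start only and 12 of the 18 genes with under 20% of words elsewhere (66.7%, beside 41.9% of all genes under 20%). The share of 46.3% against 37.5% of all genes therefore fell below the share of all genes in the first 3 (28.4% against 29.8%, 23.9% against 24.7% and 26.9% against 30.3%). The 12 genes under 20% include Hist1h2be, Hist1h1d and Hist1h3f, whose words were read at record starts away from their coding sequences. The count with no peak, 6 as reported, was 11 within 1 kb, 13 within 500 bp, 14 with a -log10 q of at least 5, 11 with the nearest start only and 3 of those 18 genes, each share below that of all genes (42.4%, 46.4%, 48.6%, 41.9% and 32.3%). The difference of -13.0 genes, PBRM1 minus BRG1, was -8.67 with the nearest start only (-12.9 percentage points, beside -4.27 over all genes). The count called by limma, 22 as reported, was 13 within 500 bp, 12 with a -log10 q of at least 5 and 14 with the nearest start only, or 68.4%, 75.0% and 77.8% of the 19, 16 and 18 fitted, beside 77.6%, 82.1% and 75.9% of all genes with BRG1 higher. It was 0 after centring (0.645% of all genes) and 3 with fold enrichment in place of pileup (9.68%, beside 17.4% of all genes). The median log2 ratio of -0.58 was 0.032 after centring, which removes the shift common to all genes, and -0.38 with fold enrichment (-0.24 over all genes), for which the cause was not tested. Leaving out each replicate in turn gave 31 to 37 genes with a peak in all lists, 6 to 8 with none and differences of -14.5 to -11.0. It gave 15 to 23 genes called (40.5% to 67.6% of those fitted, beside 60.2% to 74.1% of all genes with BRG1 higher) and medians of -0.61 to -0.43. The smallest shift and the lowest count of calls were without PBRM1 replicate 3. There, 15 of 37 were called (40.5%, beside 60.2% of all genes), and the median over all genes was -0.52. Of 73 values under alternatives, 55 stayed within 1.5 times the reported count or within 1 SD of the reported value, 17 moved further and 1 changed sign. The numbers 1 to 3 did not pair the libraries (correlations of same-numbered deviations -0.014, 0.028 and -0.004), and the replicate block gave 22 histone genes called and a median of -0.58, with 6115 in place of 6293 genes higher for BRG1. Peak lists hold only values past the caller's threshold, so a gene without a peak has no measured level, and lower occupancy there cannot be told from none. Neighbouring genes share peaks, and no control file was used in calling them.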
